A study of Mus musculus with 8 samples.

Results

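The contacts of mouse chromosome 17 that lie outside the 18 to 60 Mb interval examined most closely in the study were described here across mouse embryonic stem cells (mESCs) treated with L1 AMO or SCR AMO. Every pair of 500-kb bins of chromosome 17 (mm9) was taken in which at least 1 bin lay in the proximal section, 3 to 18 Mb, or in the distal section, from 60 Mb to the chromosome end. A bin was dropped when its coverage was below 0.1 of the median of chromosome 17 in at least 1 sample, which removed the 6 bins of the first 3 Mb and none of the 101 bins of the proximal and distal sections. This left 13635 of 14241 pairs, out of 17205 kept pairs on the chromosome and 690153 kept pairs within chromosomes over the autosomes and X. The interval from 18 to 60 Mb, with 3570 pairs, served for comparison.

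Chromatin of mammalian nuclei is divided into A compartments, which are gene-rich and active, and B compartments, which are gene-poor and mostly heterochromatic, and regions of the same kind contact each other more often than regions of different kinds. In mouse, B compartments are rich in L1, a family of long interspersed retrotransposons that is also transcribed in mESCs, and A compartments are rich in the short SINE B1 repeats. Mouse chromosome 17 is telocentric. Its proximal part carries the T (Brachyury) gene, a regulator of mesoderm, and the imprinted Igf2r and Airn locus.

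Hi-C, which joins and sequences DNA ends that are close together in the nucleus, was done by a small-scale in situ protocol on 4 samples of mESCs, 2 with L1 AMO and 2 with SCR AMO. An AMO is an antisense morpholino oligo, L1 AMO is directed against L1 RNA, and SCR AMO is the scrambled control. Both groups received 5 nmol of oligo per 100 μl by nucleofection, were sorted for nucleofected cells at 12 h and were harvested at 36 h, so electroporation, sorting and time were shared and the oligo differed. Samples of a group came from independent transfections, by the study's methods. The 2 oligos are shown because their sequence is the only stated difference between the groups, in lower case since no part of them was singled out.
L1 AMO: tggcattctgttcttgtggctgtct
SCR AMO: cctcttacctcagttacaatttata

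The matrices held 112381720 contacts in SCR AMO 1, 22252054 in SCR AMO 2, 58030519 in L1 AMO 1 and 46263849 in L1 AMO 2, with the 2 matrices of each L1 AMO sample added. The pairs outside the 18 to 60 Mb interval held 1768814, 343842, 926829 and 751955 of these contacts in the same order. Beyond 10 Mb a pair of bins held a median of 26, 5, 12 and 9 contacts, so values below are averages over many pairs. Over these pairs the counts of the 2 SCR AMO samples differed with a chi-square of 1.12 per degree of freedom and those of the 2 L1 AMO samples with 1.23, whereas comparisons between the groups gave 1.64 to 2.62. Samples of a group were thus more alike than samples of different groups, and none was a copy of another.

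Of the contacts of chromosome 17, those with other chromosomes made up 29.7% and 30.5% with SCR AMO and 21.8% and 19.8% with L1 AMO. The totals of both SCR AMO matrices also depart from the valid read pairs counted in the study, whereas those of both L1 AMO samples lie close to them. In every value below, an AMO effect therefore cannot be told apart from unequal preparation of the matrices.

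Compartments were called from eigenvector 1 of the correlation map of observed/expected contacts, where expected is the mean of the chromosome at the same distance. Bins on the side with the larger share of contacts with other chromosomes were called A (r = 0.607 across the bins of chromosome 17, which are not independent). The sections outside the 18 to 60 Mb interval held 39 A bins and 62 B bins. The proximal section had 19 A bins and 11 B bins, with A blocks at 3 to 3.5, 5 to 9, 10 to 11 and 12 to 16 Mb and B blocks at 3.5 to 5, 9 to 10, 11 to 12 and 16 to 18 Mb. The distal section had 20 A bins and 51 B bins, with A blocks at 66 to 67, 71 to 72, 74.5 to 75.5, 79 to 81 and 84 to 89 Mb and B blocks at 60 to 66, 67 to 71, 72 to 74.5, 75.5 to 79, 81 to 84 and from 89 Mb to the chromosome end. The distal section was therefore mostly B with A blocks between, and the proximal section held more A than B.

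Across the 101 bins, eigenvector 1 computed in each sample alone correlated with r = 0.991 between the SCR AMO samples, 0.989 between the L1 AMO samples and 0.954 to 0.974 between samples of different groups. Its sign differed at 3 bins between the SCR AMO samples, at 3 bins between the L1 AMO samples and at 11 to 15 bins between groups. In the proximal section these were 1, 2 and 6 to 9 of 30 bins, and in the distal section 2, 1 and 4 to 7 of 71, so compartment signs differed between groups at a larger share of proximal bins. In the 18 to 60 Mb interval they were 0, 2 and 7 to 9 of 84. Eigenvector 1 of the 4 samples together was near 0 at several proximal bins, such as 9 to 9.5 Mb (-0.07) and 11.5 to 12 Mb (-0.08). It was near 0 at some distal bins as well, such as 79.5 to 80 Mb (0.03). At such bins a small change turns the sign. The 101 bins share libraries and neighbours, so the correlations are a description.

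The study asked whether L1 RNA depletion weakens compartments, and outside the 18 to 60 Mb interval the answer for contacts over 2 Mb differed by kind of pair. Relative to the chromosome mean at the same distance, contacts between A regions fell. Those between B regions and between A and B regions rose slightly over all bins. The direction for B-B pairs turned when only the most marked bins were counted, as described below, and that for A-B pairs depended on the labels. The mean observed/expected value of A-A pairs was 1.37 and 1.39 with SCR AMO and 1.25 and 1.203 with L1 AMO, a log2 change of -0.17. For B-B pairs it was 1.25 and 1.26 against 1.29 and 1.31, a log2 change of 0.04. For A-B pairs it was 0.797 and 0.796 against 0.819 and 0.818, also a log2 change of 0.04. In all 3 the groups did not overlap. Observed/expected values have the same mean at each distance in every sample, so a fall of A-A pairs must be offset elsewhere on the chromosome. The B-B and A-B rises are therefore relative and not independent of that fall. The A-B change was 0.07 with labels from the SCR AMO samples alone and 0.003 with labels from the L1 AMO samples alone, and it turned to -0.027 with labels made from contacts with the 18 to 60 Mb interval, on pairs wholly outside it. The B-B change was 0.13 without balancing, 0.08 with the chromosome balanced alone and 0.08 for pairs wholly outside the interval. It was 0.02 for pairs over 2 and up to 40 Mb apart, an alternative chosen after seeing the data.

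Compartment strength, the mean of A-A and B-B divided by A-B, was 1.65 and 1.66 with SCR AMO and 1.55 and 1.53 with L1 AMO. It was lower in both L1 AMO samples, by 6.99% of the SCR AMO mean on average (a change of -6.99%). Two-sided exact permutation tests gave p = 0.333 for strength and for each of its 3 components, the smallest p that 2 samples against 2 allow, so this design cannot reach 0.05 for any such value. With labels from the SCR AMO samples alone the difference in strength was -0.149. With labels from the L1 AMO samples alone it shrank from -0.116 to -0.069. Pairs that lie wholly outside the interval gave -0.076 with the main labels, an alternative chosen after seeing the data. With labels made from contacts with the 18 to 60 Mb interval as well, such pairs gave -0.034.

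The interval from 18 to 60 Mb changed more. Its strength was 2.34 and 2.40 with SCR AMO and 1.74 and 1.64 with L1 AMO, a change of -28.7%. There the A-B pairs rose from 0.495 and 0.476 to 0.597 and 0.621, A-A pairs fell from 1.17 and 1.16 to 1.00 and 0.956, and B-B pairs fell from 1.16 and 1.13 to 1.08 in both L1 AMO samples. Compartments outside the interval were weaker to begin with and lost less. The log2 strength outside minus that inside was -0.51 and -0.53 with SCR AMO and -0.17 and -0.10 with L1 AMO, so it rose by 0.38 (exact permutation p = 0.333, groups not overlapping). When both sets were held to pairs over 2 and up to 40 Mb apart, an alternative chosen after seeing the data, this difference was 0.37. For scale, the strength of the other 18 autosomes changed by -13.7% to -5.70%, with a median of -9.72%, and that of all of chromosome 17 by -10.6%. The change outside the interval lay within the range of the other autosomes and that inside it did not. The autosome values are for whole chromosomes, however, and no interval of similar size was measured on another autosome. Whether the interval is unusual in the genome was thus not tested.

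Within the members, the loss of strength was largest among distal-distal pairs and pairs of the distal section with the 18 to 60 Mb interval. Distal-distal pairs had a strength of 1.62 and 1.65 with SCR AMO and 1.45 and 1.42 with L1 AMO, a change of -12.0%. Their A-A value fell from 1.75 in both SCR AMO samples to 1.46 and 1.41 with L1 AMO. Distal bins with the 18 to 60 Mb interval gave 1.98 and 1.97 against 1.80 and 1.76, a change of -9.94%, which came with lower A-A values (1.59 and 1.62 against 1.37 and 1.31) while the B-B and A-B values of the groups overlapped.

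The proximal section changed less. Its own pairs had a strength of 1.24 and 1.25 with SCR AMO and 1.19 and 1.21 with L1 AMO, a change of -3.63%. With the 18 to 60 Mb interval they gave 1.39 and 1.42 against 1.35 and 1.33, a change of -4.81%, and there B-B pairs (0.950 and 0.942 against 1.06 and 1.09) and A-B pairs (0.697 and 0.680 against 0.757 and 0.766) both rose. Between the proximal and the distal section, over 42.5 to 92 Mb, strength was 1.43 and 1.44 with SCR AMO and 1.41 and 1.47 with L1 AMO, so the groups overlapped. Yet A-A contacts across this distance fell, from 1.49 and 1.497 to 1.41 and 1.36, and B-B contacts rose, from 1.04 and 1.01 to 1.09 and 1.17. The equal strength of this class hid opposite shifts of its parts.

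The outcome depended on which bins were counted. The study measured compartment strength from the corners of saddle plots, that is from the most marked bins. When only the 20% of bins at each end of eigenvector 1 of the whole chromosome were used, 37 bins a side, B-B contacts outside the interval fell from 1.59 in both SCR AMO samples to 1.52 and 1.51 with L1 AMO, a log2 change of -0.07. A-A contacts fell less than over all bins, from 1.55 and 1.51 to 1.46 and 1.42 (log2 -0.09), and A-B contacts rose from 0.376 in both SCR AMO samples to 0.486 and 0.504 with L1 AMO. Strength by this measure was 4.18 and 4.12 against 3.06 and 2.91, a change of -28.0%, and inside the interval it was 4.83 and 5.23 against 2.62 and 2.25, a change of -51.5%. Of the 37 bins at the B end 20 lay in the distal section and none in the proximal section, whereas at the A end 4 lay in the distal and 3 in the proximal section. Of the 491 B-B pairs counted this way, 330 joined distal bins to the 18 to 60 Mb interval, with a log2 change of -0.09. The 161 distal-distal pairs fell less, from 1.53 and 1.52 to 1.51 and 1.48 (log2 -0.03). The most marked B regions of the distal section thus behaved differently from the B bins as a whole, which is taken up bin by bin below.

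Contacts outside the interval also shifted between distances. The share of member contacts at distances over 2 and up to 10 Mb was 10.99% and 10.2% with SCR AMO and 12.6% and 12.4% with L1 AMO. The share beyond 10 Mb was 20.6% and 19.02% against 18.1% and 17.4%. Neither share overlapped between the groups (exact permutation p = 0.333 for both), with differences of 1.89 and -2.05 percentage points, or 3.49 and -2.50 when contacts inside a bin were left out. Without SCR AMO 1 the change beyond 10 Mb was -1.28 points, and without L1 AMO 2 it was -1.67 (exact permutation p = 0.667). Mid-range contacts were thus more frequent, and long-range ones less frequent, with L1 AMO.

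The mid-range rise was seen in all 4 classes of section pair that hold such distances. Frequencies are given as ppm, the balanced value of a pair of bins as a part of all balanced contacts within the chromosome. A proximal-proximal pair of bins over 2 and up to 10 Mb apart held 49.1 and 44.9 ppm with SCR AMO and 54.0 and 53.1 with L1 AMO. A distal-distal pair held 41.7 and 39.0 against 47.7 and 46.8, a log2 change of 0.23. Over 10 and up to 40 Mb the direction turned. Distal-distal pairs there held 19.7 and 18.5 against 18.2 and 17.4, and pairs of the distal section with the 18 to 60 Mb interval held 14.8 and 13.9 against 12.6 and 12.1, whereas the values for the proximal section with the interval overlapped between the groups.

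The longest contacts, between the proximal and the distal section, had the lowest frequency of the 5 classes. They held 5.26 and 4.44 ppm with SCR AMO and 4.08 and 3.63 with L1 AMO, a log2 change of -0.33 (exact permutation p = 0.333). All L1 AMO values were below all SCR AMO values, although the SCR AMO samples differed from each other by more than SCR AMO 2 differed from L1 AMO 1. The log2 change was -0.20 without SCR AMO 1 and -0.25 without L1 AMO 2 (exact permutation p = 0.667 for both). The mean frequency between bins of chromosome 17 and bins of other chromosomes was 0.699 and 0.716 ppm with SCR AMO and 0.455 and 0.401 with L1 AMO. With that level taken off, an alternative chosen after seeing the data, the log2 change between the proximal and distal sections was -0.28, the share beyond 10 Mb changed by -1.66 percentage points and strength outside the interval by -0.155.

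Pairs of adjacent bins showed a fall in the same members, from 1209 and 1179 ppm with SCR AMO to 1094 and 1054 with L1 AMO. Contacts within a bin overlapped between the groups. The change with distance was therefore not a plain shift from long to short distances.

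To follow single bins, a compartment score was computed as the log2 ratio of a bin's mean observed/expected value with A bins of the chromosome to that with B bins, over 2 Mb apart, so that A bins are mostly above 0 and B bins below. Of the 101 bins outside the interval, 54 moved away from the side of their own label in both L1 AMO samples relative to both SCR AMO samples, 25 moved further to that side and 22 overlapped. Over all autosomal bins 62.9% moved away from their side and 13.9% further to it. In the 18 to 60 Mb interval these were 70 and 7 of 84 bins. With labels from the SCR AMO samples alone, 66 of the 101 bins moved away from their side and 17 further to it, so these counts depend on the labels. With control labels they lie closer to the autosomal shares above. Those shares use labels that include L1 AMO, and no autosomal share with control labels is given here for this count.

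Most A bins fell. Of 39 A bins 28 fell, 1 rose and 10 overlapped, against 82.5% falling and 2.01% rising over all autosomal A bins, with a median change of -0.19 here and -0.23 there. The B bins were divided. Of 62 B bins 26 rose toward A and 24 fell further to the B side, against 46.9% and 23.6% over all autosomal B bins. In the proximal section 8 of 11 B bins fell further to the B side and 1 rose.

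The B bins divided by how strongly they were B in the control. Because a split on the same values that are compared would favour such a pattern, the bins were split at a score of -1 in SCR AMO 2 and compared between SCR AMO 1 and the L1 AMO samples, a choice made after seeing the data. Of the 27 strong B bins, 24 were above SCR AMO 1 in both L1 AMO samples and 1 was below, with medians of -1.22 in SCR AMO 1 and -0.99 and -1.02 with L1 AMO. Of the 35 weaker B bins, 3 were above and 27 below, with medians of -0.31 in SCR AMO 1 and -0.44 and -0.46 with L1 AMO. The labels of the 4 samples include L1 AMO, which can place bins that fell with L1 AMO among the weaker B bins. With labels from SCR AMO 2 alone, also chosen after seeing the data, 24 of 25 strong B bins were above and 0 below, and of 28 weaker B bins 4 were above and 20 below (all autosomes 48.5% and 33.9% of weaker B bins). By this score, strong B bins thus mostly moved toward A and weaker B bins mostly further to B. Eigenvector 1 of the B blocks did not show the rise, but its scaling within each sample means that it cannot decide this, as given below. Of the 39 A bins 1 was above SCR AMO 1 in both and 33 were below (all autosomes 3.36% and 89.3%). Over all autosomes 95.7% of strong B bins were above and 0.614% below, close to the share here, but 41.3% of weaker B bins were above and 41.4% below. The difference from the autosomes was not tested.

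The bins with the largest changes were all strong distal B bins. The bin at 78 to 78.5 Mb had scores of -1.66 and -1.70 with SCR AMO and -1.04 and -1.10 with L1 AMO, a rise of 0.61. At 61 to 61.5 Mb they were -1.37 and -1.67 against -1.01 and -0.91, at 61.5 to 62 Mb -1.54 and -1.46 against -0.95 and -1.02, and at 60.5 to 61 Mb -1.32 and -1.51 against -0.98 and -0.87. All 4 remained on the B side. The smallest changes were at 88.5 to 89, 83.5 to 84, 75.5 to 76 and 6.5 to 7 Mb, where the groups overlapped. The first 3 of these lie at the edges of their blocks, and the last is a clear A bin with scores of 1.17 and 1.08 against 0.92 and 1.26.

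The blocks show the same in longer stretches. The longest A block, 84 to 89 Mb, had a mean score of 0.80 and 0.79 with SCR AMO and 0.71 and 0.63 with L1 AMO. The A block at 5 to 9 Mb changed little, with 0.74 in both controls and 0.68 and 0.69 with L1 AMO. The A block at 12 to 16 Mb had 0.53 and 0.55 against 0.35 and 0.31. The A block at 79 to 81 Mb, which lies between B blocks, had 0.55 and 0.57 against 0.23 and 0.21, the largest fall of these 4. All 9 A blocks outside the interval, including the single bin at 3 to 3.5 Mb, scored lower in each L1 AMO sample than in either control, as did 91.1% of A blocks over all autosomes (1.15% were higher) and all 3 in the 18 to 60 Mb interval.

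Among B blocks the direction varied. The terminal block from 89 Mb had scores of -1.08 and -1.07 with SCR AMO and -0.97 and -0.997 with L1 AMO. The block at 60 to 66 Mb had -0.87 and -0.91 against -0.75 in both L1 AMO samples, the mean of a stretch up to 63.5 Mb that rose and a weaker stretch from 63.5 Mb that fell further to B. The block at 75.5 to 79 Mb had -1.18 and -1.21 against -0.92 and -0.93, the largest rise of the B blocks. The block at 67 to 71 Mb went the other way, with -0.59 and -0.65 against -0.71 and -0.65. Of 10 B blocks 4 rose, 5 fell and the one at 16 to 18 Mb overlapped, against 39.3% rising and 41.5% falling over all autosomes, and all 4 B blocks of the 18 to 60 Mb interval rose. Outside the interval, eigenvector 1 of the 4 blocks whose score rose went the other way and was lower in both L1 AMO samples. At 60 to 66 Mb it averaged -0.998 and -0.997 with SCR AMO and -1.20 and -1.26 with L1 AMO. At 75.5 to 79 Mb it was -1.19 and -1.18 against -1.25 and -1.26. In the terminal block SCR AMO 1 and L1 AMO 1 were nearly equal (-1.163 and -1.165). In the 5 blocks whose score fell, eigenvector 1 was lower as well. Eigenvector 1 was scaled to the same mean square in each sample, so lower B values can go with smaller A values. At 79 to 81 Mb, an A block, it was 0.69 and 0.74 against 0.16 and 0.16. Its level therefore cannot show whether B blocks became weaker or stronger.

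Contacts within the blocks moved with their kind in the distal section. All 6 distal B blocks had lower observed/expected values between their own bins in both L1 AMO samples, such as 1.79 and 1.86 against 1.57 and 1.59 at 75.5 to 79 Mb and 1.71 and 1.73 against 1.46 and 1.42 at 81 to 84 Mb. All 5 distal A blocks had higher values, such as 0.755 and 0.713 against 0.861 and 0.846 at 74.5 to 75.5 Mb. This block and those at 66 to 67 and 71 to 72 Mb hold 2 bins each, so each value is that of a single pair of adjacent bins. The longest A block, at 84 to 89 Mb, changed little, from 0.990 and 0.988 to 0.995 and 0.997. Values at a given distance have the same mean in every sample, so lower values in B blocks go with higher values elsewhere. In the proximal section contacts inside B blocks fell in 2, rose in the block at 16 to 18 Mb and overlapped in that at 3.5 to 5 Mb, and of 3 A blocks 1 rose, 1 fell and 1 overlapped. Over all autosomes such contacts fell in 76.3% of B blocks and rose in 6.44%, and rose in 72.0% of A blocks and fell in 12.8%. In the 18 to 60 Mb interval they fell in all 4 B blocks, rose in 2 A blocks and fell in 1 A block. That A block was at 23.5 to 36.5 Mb, with 0.98 and 0.96 against 0.88 and 0.85.

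Raw counts between blocks gave a test of single block pairs. Contacts were summed for each pair of different blocks and tested in edgeR (quasi-likelihood, TMM scaling), fitted on 13092 pairs of blocks from the 19 autosomes with Benjamini-Hochberg adjustment over all of them. At a false discovery rate (FDR) of 0.05, 59 of the 304 pairs outside the interval were higher and 89 lower in L1 AMO, against 21.8% and 22.1% of all autosomal pairs (43.8% in either direction, 47.3% of like and 40.5% of unlike pairs). Of the 148 like pairs 28 were higher and 50 lower (all autosomes 19.7% and 27.6%), and they were split into A-A and B-B after their values were seen. Of 63 A-A pairs 2 were higher and 43 lower (all autosomes 9.08% and 47.8%). Of 85 B-B pairs 26 were higher and 7 lower (29.9% and 8.17%). Of 156 A-B pairs 31 were higher and 39 lower (23.8% and 16.7%). A-A pairs were thus mostly called lower, and B-B calls were mostly higher, as over the autosomes.

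These counts also carry the shift between distances. When the fit was given the count expected from distance as an offset, 35 A-A pairs were lower and 0 higher, 35 B-B pairs higher and 0 lower, and 29 A-B pairs higher and 13 lower by edgeR. Over all autosomes the same fit called 15.2% of all pairs higher and 13.7% lower (28.9% in either direction), or 15.1% and 21.9% of like pairs (37.1%). By kind, it called 42.1% of A-A pairs lower and 1.12% higher, 28.6% of B-B pairs higher and 2.43% lower, and 15.3% of A-B pairs higher and 5.93% lower (21.2%). With the offset, the A-A calls were lower and the B-B calls higher in each of the 5 classes of section pair. Before it calls in the opposite direction were found in 4 classes: proximal-proximal pairs had 2 A-A higher and 0 lower, proximal-distal pairs 0 B-B higher and 2 lower, distal pairs with the interval 4 B-B higher and 4 lower, and distal-distal pairs 9 B-B higher and 1 lower. In the distal section with the 18 to 60 Mb interval all 15 A-A pairs were lower with the offset, and in the proximal section with that interval 11 of 16 B-B pairs were higher. The labels include L1 AMO, and the proximal B blocks at 9 to 10 and 11 to 12 Mb were on the A side of eigenvector 1 in both controls.

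The counts of calls depended on SCR AMO 1, the deepest sample. Without it, edgeR called fewer pairs of each kind, with the offset and without it, and fewer over all autosomes too. A-A calls were still mostly lower and B-B calls mostly higher, with some in the opposite direction when no offset was used. A-B calls without the offset, mostly lower in the main fit, were then mostly higher. Without TMM normalization, which shifted the median log2 change of all block pairs by -0.13, 52 A-A pairs were lower and 1 higher, 22 B-B pairs lower and 18 higher, and 63 A-B pairs lower and 12 higher (48.4% called). The direction of A-A pairs held under each of these scalings, whereas that of B-B pairs depended on the scaling, and that of A-B pairs on the scaling and on the samples used.

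Among blocks of at least 2 bins, the B-B pairs with the largest rise lay within 10 Mb of each other, and 3 of the 4 involved the proximal section. Those 3 all used the block at 9 to 10 or at 11 to 12 Mb, which was B only through labels that include L1 AMO. Contacts of the blocks at 11 to 12 and 16 to 18 Mb were 21.5 and 20.2 ppm per pair of bins with SCR AMO and 30.7 and 31.7 with L1 AMO, a log2 change of 0.69 ± 0.099 (SE, edgeR FDR 1e-07). Those of 72 to 74.5 with 75.5 to 79 Mb were 46.5 and 41.8 against 63.9 and 61.2 (0.65 ± 0.057, edgeR FDR 8.8e-14). Those of 11 to 12 with 18 to 23.5 Mb were 16.0 and 14.9 against 21.8 and 20.0 (0.63 ± 0.081, edgeR FDR 6.1e-09). Both groups were well apart in these pairs, which by the labels used join weak B blocks to stronger ones. The blocks at 9 to 10 and 16 to 18 Mb gave 18.8 and 16.5 against 24.7 and 26.0 (0.62 ± 0.107, edgeR FDR 3.6e-06), and with the distance offset all 4 remained higher, by 0.32, 0.28, 0.50 and 0.40. The block at 11 to 12 Mb, however, was on the A side of eigenvector 1 in both controls. Its mean was 0.098 and 0.079 with SCR AMO and -0.24 and -0.44 with L1 AMO. That of the block at 9 to 10 Mb was 0.017 and 0.059 against -0.30 and -0.34. Both were B only through labels that include L1 AMO, and these rises were not tested with control labels. Ranked with the offset, the largest B-B rises were others and lay 41.25 to 73 Mb apart, led by 3.5 to 5 with 75.5 to 79 Mb (0.68, edgeR FDR 0.00029), so the short distances above belong to the ranking without it. Some of the pairs so ranked also used the block at 11 to 12 Mb. The leading pair of 3.5 to 5 with 75.5 to 79 Mb did not pass without the offset (edgeR FDR 0.063). Its balanced values overlapped between the groups, at 4.13 and 3.05 ppm with SCR AMO and 3.85 and 4.93 with L1 AMO.

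Among blocks of at least 2 bins, 3 of the 4 A-A pairs with the largest fall joined the proximal to the distal section. The A blocks at 10 to 11 and 66 to 67 Mb shared 124 and 37 contacts with SCR AMO and 37 and 28 with L1 AMO, a log2 change of -0.91 ± 0.230 (SE, edgeR FDR 0.0011). The blocks at 10 to 11 and 71 to 72 Mb shared 125 and 19 against 34 and 23 (-0.89 ± 0.231, edgeR FDR 0.0013), and those at 10 to 11 and 84 to 89 Mb 382 and 71 against 110 and 79 (-0.83 ± 0.138, edgeR FDR 1.8e-06). The same small A block at 10 to 11 Mb thus took part in 3 of the 4 largest falls, and 2 of these rest on few contacts. With the distance offset these 3 changes were smaller, -0.60, -0.59 and -0.43 (edgeR FDR 0.033, 0.037 and 0.0084). Ranked with the offset, the block at 10 to 11 Mb was in 2 of the 4 largest falls, and the pair of 74.5 to 75.5 with 79 to 81 Mb (-0.61) was among them. Eigenvector 1 of the block at 10 to 11 Mb averaged 0.61 and 0.58 with SCR AMO and 0.18 and -0.09 with L1 AMO. That block was thus clearly A in the controls only. The blocks at 56 to 57.5 and 79 to 81 Mb had 35.4 and 33.6 ppm with SCR AMO and 21.5 and 19.3 with L1 AMO, a log2 change of -0.80 ± 0.080 (edgeR FDR 6.3e-12) and of -0.71 with the distance offset (edgeR FDR 3.8e-12). In observed/expected terms this last pair went from 2.49 in both SCR AMO samples to 1.72 and 1.59, so it stayed enriched.

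The A-B pairs that rose most lay within 10 Mb of each other. The A block at 71 to 72 Mb and the B block at 75.5 to 79 Mb had 23.3 and 21.8 ppm with SCR AMO and 32.5 and 36.3 with L1 AMO, a log2 change of 0.61 ± 0.084 (SE, edgeR FDR 3.4e-08). The pair of 10 to 11 with 16 to 18 Mb rose by 0.50, that of 57.5 to 60 with 66 to 67 Mb by 0.48 and that of 3.5 to 5 with 10 to 11 Mb by 0.47. With the distance offset the first of these and the pair at 57.5 to 60 Mb were still higher (edgeR FDR 0.0074 and 0.009), and the other 2 did not pass (edgeR FDR 0.11 and 0.2). Ranked with the offset, the largest A-B rises were others, 42.25 to 70.25 Mb apart, led by 10 to 11 with 75.5 to 79 Mb (0.51, edgeR FDR 0.035). This leading pair did not pass without the offset (edgeR FDR 0.22). It shared 120 and 19 contacts with SCR AMO and 61 and 65 with L1 AMO, and its balanced values overlapped between the groups. The block at 10 to 11 Mb, in this pair and in others above, had eigenvector 1 near 0 with L1 AMO.

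Among blocks of at least 2 bins, the A-B pairs that fell most were far apart, and 3 of the 4 involved the B block at 16 to 18 Mb. With the A block at 56 to 57.5 Mb it had 13.2 and 10.7 ppm with SCR AMO and 8.85 and 7.55 with L1 AMO, a log2 change of -0.66 ± 0.116 (SE, edgeR FDR 4.8e-06). With the A block at 66 to 67 Mb it had 9.69 and 8.81 against 6.06 and 6.29 (-0.66 ± 0.147, edgeR FDR 0.00022), and with that at 74.5 to 75.5 Mb 8.33 and 5.92 against 6.28 and 3.83 (-0.64 ± 0.201, edgeR FDR 0.0082). In the last of these the balanced values of the groups overlapped. The pair of 3.5 to 5 with 71 to 72 Mb shared 101 and 20 contacts against 39 and 19 (-0.63 ± 0.243, edgeR FDR 0.03). With the distance offset the pairs at 56 to 57.5 and 66 to 67 Mb were still lower (edgeR FDR 0.00011 and 0.0088) and the other 2 did not pass. The block at 16 to 18 Mb is itself mixed, since its bins from 16 to 17 Mb had scores near those of strong B bins and its bins from 17 to 18 Mb scores near 0.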

How the data were processed

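The authors aligned the Hi-C read pairs to mm9 with HiC-Pro (version 2.7.1b in the submitters' processing notes; the study's methods give another version) and deposited raw contact counts for each pair of 500-kb bins, without balancing. Groups followed the sample labels. The counts were balanced by iterative correction over 5093 kept bins of the autosomes and X, and divided by the chromosome mean at each distance. Python 3.11.15 (numpy 2.4.6, scipy 1.17.1, pandas 2.3.3) and R 4.3.3 (edgeR 4.0.16, DESeq2 1.42.0) were used. For single values the test was an exact two-sided permutation of the samples. Block pairs with a mean count of at least 10 were tested with edgeR. Compartment labels, strength and the block-pair test were tested on simulated data. The regions described were, outside the interval, the 4 longest A and B blocks, the 4 largest rises and falls among significant like and unlike pairs of blocks of at least 2 bins, and the 4 bins with the largest and smallest score change. Members and lists were chosen with earlier results of these data known. H3K9me3 ChIP-seq samples and repeat labels of chromosome 17 were not analysed here. Alternatives were no balancing, balancing of the chromosome alone, 1 of the 2 L1 AMO matrices, leaving out any sample, thinning to the lowest depth, other coverage and distance limits, other labels, DESeq2, and other scalings and filters. Matched distances, contacts between chromosomes taken off, pairs wholly outside the interval, both splits and the offset fits without a sample were chosen after seeing the data.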

Additional observations from a re-analysis of the deposited data

How the results depend on the processing

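Of the alternative values of the contact measures outside the 18 to 60 Mb interval, 2 reversed: A-B contacts with labels from contacts with the interval (log2 -0.027) and B-B contacts with the 20% of bins at each end (-0.071). The cause was not tested. Leaving out each sample gave strength differences of -0.135 to -0.093 outside and -0.709 to -0.623 inside the interval (0.33 to 0.40 for the difference), log2 changes of -0.19 to -0.14 for A-A, 0.02 to 0.05 for B-B and 0.03 to 0.06 for A-B, shares of 1.51 to 2.27 and -2.81 to -1.28 points, proximal to distal -0.45 to -0.20, and 59 to 62 bins away from and 29 to 31 further to their side.

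Samples of the groups share only a replicate number (correlation of deviations 0.0866). With the replicate number as a block, 4 A-A pairs were higher, 43 A-A lower, 26 B-B higher, 10 B-B lower, 37 A-B higher and 42 A-B lower, and strength outside changed by -0.116. DESeq2 called 2 A-A higher, 26 A-A lower, 22 B-B higher, 2 B-B lower, 19 A-B higher and 11 A-B lower (32.4% of all autosomal pairs). Without TMM 1 A-A was higher, 52 A-A lower, 18 B-B higher, 22 B-B lower, 12 A-B higher and 63 A-B lower. With the distance offset 0 A-A were higher, 35 A-A lower, 35 B-B higher, 0 B-B lower, 29 A-B higher and 13 A-B lower. Leaving out each sample gave 1 to 4 A-A higher, 26 to 46 A-A lower, 18 to 31 B-B higher, 3 to 7 B-B lower, 13 to 31 A-B higher and 8 to 46 A-B lower. With the offset these were 21 to 36 A-A lower, 10 to 43 B-B higher, 7 to 29 A-B higher and 1 to 18 A-B lower, an alternative chosen after seeing the data. The lowest A-A and B-B counts with the offset were without SCR AMO 1. Where 1 sample was left in a group, it was assumed to vary like the other group. Depth limits long-range pairs of small blocks, and 2 samples a group limit every other value.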
